A study of Homo sapiens with 12 samples.

Results

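The 9 genes described here are 8 members of the MYC network of transcription factors, MYC, MAX, MNT, MXI1, MXD1, MXD4, MLX and MLXIP, and HMGA1, an architectural chromatin protein. They are 9 of the 60902 gene rows of the series, and all 9 were found by symbol and passed the filter of a mean of at least 1 TPM, as did 13854 rows in all. HMGA1 was chosen from its measured TPM, because it rose in restricted medium, so its difference between restricted and normal medium is given below as a description, with no test, and counts of called members are over the other 8 genes.

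RNA was sequenced from A549/DDP cells, a cisplatin-resistant subline of A549, which is itself an established line from a human lung adenocarcinoma, in 4 groups of 3 libraries. The TRF_DDP group received time-restricted feeding and cisplatin (DDP), the TRF group time-restricted feeding alone, the DDP group cisplatin alone in normal medium, and the CON group normal medium with no added treatment. Time-restricted feeding here means a 24 h cycle with 6 h in normal medium, which holds 2 g/L glucose and 10% fetal bovine serum, and 18 h in medium with neither serum nor glucose. Serum and glucose were thus withdrawn together, in TRF and TRF_DDP alike, and their parts cannot be told apart. All 4 groups come from 1 resistant line that is kept in cisplatin to hold its resistance. A dose and exposure of cisplatin are stated for qPCR on these cells but not for the sequenced libraries themselves, and no source used here says whether cisplatin was withdrawn from CON and TRF beforehand.

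MYC is a basic helix-loop-helix leucine zipper protein that binds DNA only as a dimer with MAX, most strongly at the E-box CACGTG, and activates genes of ribosome production, nucleotide synthesis and growth. MXD1, MXI1, MXD4 and MNT also pair with MAX, take the same sites and recruit SIN3 and histone deacetylases, so they are known as the repressive arm of the network. MLX is a second shared partner: with MLXIP (MondoA) it forms a dimer that responds to glucose phosphates, and it can also pair with MNT and MXD4. HMGA1 binds the minor groove of AT-rich DNA through AT-hooks, is abundant in embryonic and cancer cells, and is itself known as a MYC target in other cell systems.

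The deposited values are TPM, the share of a gene in a library's transcripts after correction for gene length, so genes can be set beside each other on this scale. The depth per library is unknown, a TPM says nothing of the RNA per cell, and in these bulk libraries fewer cells of a kind and less RNA per cell cannot be told apart. The number of genes at 1 TPM or more was 13384 to 13500 in TRF_DDP libraries, 13029 to 13307 in TRF libraries, 13866 to 14028 in DDP libraries and 13726 to 13854 in CON libraries. Mitochondrial transcripts took 8.28 to 8.55% of TPM in TRF_DDP libraries, 6.37 to 8.84% in TRF libraries, 9.88 to 9.99% in DDP libraries and 10.3 to 10.8% in CON libraries. Of 6 epithelial markers, KRT7, KRT8 and KRT18 were abundant, while KRT19, EPCAM and CDH1 stayed under 1 TPM in all 12 libraries. The summed markers of leukocytes reached at most 5.41 TPM, of fibroblasts 21.9 TPM and of endothelium 115 TPM, and in each of these lists only 1 gene (ITGAM, COL1A1 and EGFL7) had a mean of at least 1 TPM. The part of these library properties in the results was not tested.

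The E-box is the site that MYC, the repressors and MLX dimers share, so the start regions of the network genes themselves were searched for it. Windows of 250 bases before to 50 bases after the RefSeq start (GRCh38.p14) were given for 8 of the 9 genes, 12 windows in all, and MYC was not analysed here. The letters CACGTG, which read the same on both strands, stood in 3 of the 12 windows, those of MNT, MXD4 and MLX, against 7.26% of all 35116 windows in the table. The 2 windows of HMGA1, the 3 of MXI1 and those of MAX, MXD1 and MLXIP did not hold these letters. The 3 windows that did are shown 5' to 3' on the gene's strand with the E-box in capitals. It begins 193 bases before the start of MNT (chr17:2401011-2401310, minus strand), 238 bases before that of MXD4 (chr4:2262060-2262359, minus strand) and 50 bases before that of MLX (chr17:42566850-42567149, plus strand). A match of letters is a description and not a bound site.
MNT: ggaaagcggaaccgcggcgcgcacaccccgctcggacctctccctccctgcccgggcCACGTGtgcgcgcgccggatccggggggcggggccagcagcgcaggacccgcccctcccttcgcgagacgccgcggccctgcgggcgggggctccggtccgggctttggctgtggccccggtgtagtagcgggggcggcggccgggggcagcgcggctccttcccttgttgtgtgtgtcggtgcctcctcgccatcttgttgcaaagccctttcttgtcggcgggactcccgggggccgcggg
MXD4: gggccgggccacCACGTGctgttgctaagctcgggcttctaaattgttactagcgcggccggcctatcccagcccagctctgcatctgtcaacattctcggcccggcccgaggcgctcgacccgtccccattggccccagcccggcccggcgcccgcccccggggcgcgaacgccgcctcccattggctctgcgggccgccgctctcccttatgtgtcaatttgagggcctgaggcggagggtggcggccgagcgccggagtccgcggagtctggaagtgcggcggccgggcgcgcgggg
MLX: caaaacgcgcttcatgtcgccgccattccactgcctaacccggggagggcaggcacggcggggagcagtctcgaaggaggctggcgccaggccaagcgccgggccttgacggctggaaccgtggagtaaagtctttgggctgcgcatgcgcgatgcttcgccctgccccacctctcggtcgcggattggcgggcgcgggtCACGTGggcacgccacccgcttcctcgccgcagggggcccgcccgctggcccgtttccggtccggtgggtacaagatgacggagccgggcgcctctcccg

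HMGA1 was the most abundant of the 9 genes in every group, and it stood far higher in both groups of restricted medium. Its gene lies at chr6:34236873-34246231 on the plus strand (GENCODE v29, GRCh38). The 3 TRF libraries held 1170.4, 1109 and 1195 TPM of HMGA1, against 346, 328 and 331 TPM in CON libraries. With cisplatin the values were 775, 834 and 792 TPM in TRF_DDP libraries, against 324, 316 and 338 TPM in DDP libraries. No library of restricted medium came near one of normal medium, and the 3 libraries of each group lay close together. The mean was 1158 ± 44.6 TPM in TRF and 335 ± 9.58 TPM in CON, 3.46 times as high, and 800.2 ± 30.6 TPM in TRF_DDP and 326 ± 11.3 TPM in DDP, 2.45 times as high (SD, n = 3 each). On the log2(TPM + 1) scale these differences were 1.79 and 1.29. Ranked by mean TPM, HMGA1 was gene 142 of its group in TRF, 185 in TRF_DDP, 383 in DDP and 360 in CON.

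The choice of HMGA1 rested on the media, and its difference with cisplatin within each medium is another contrast of the same libraries. In normal medium HMGA1 differed by a log2 fold change of -0.04 (SE 0.04) between DDP and CON, with a 95% interval from -0.13 to 0.05 and overlapping libraries. In restricted medium all 3 TRF_DDP libraries lay under all 3 TRF libraries, with a log2 fold change of -0.53 (SE 0.04). That did not reach the fold of 1.5 that a call also asked for. The choice of the gene used the values of all 4 groups, so both differences are given as descriptions, without p-values. The interaction, the difference between TRF_DDP and TRF minus that between DDP and CON, was -0.49 on the log2 scale (SE 0.06). It equals the gap between the 1.29 and 1.79 above, which the choice of the gene used, and is a description with no test. Each of the 4 groups enters several of these comparisons, so they are not independent of each other.

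**Figure D1:**
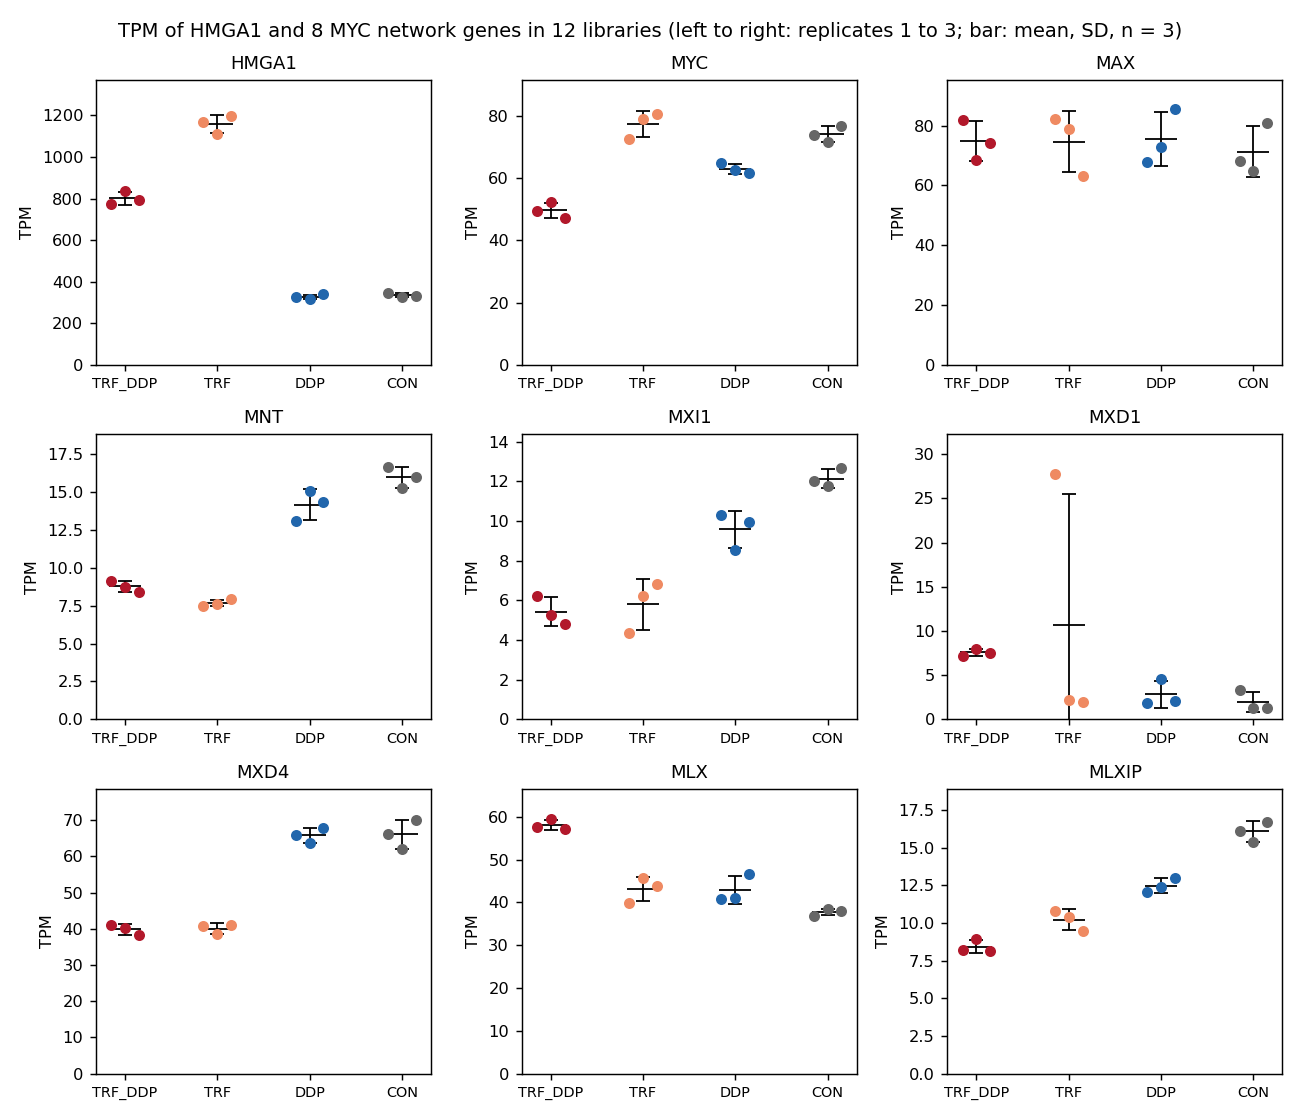
Level of each gene in TPM (vertical axes, from 0) in the TRF_DDP, TRF, DDP and CON libraries. Points are libraries, replicates 1 to 3 from left to right, and bars are the mean and SD (n = 3). HMGA1 ran at 1109 to 1195 TPM in TRF against 328 to 346 TPM in CON, MNT, MXI1, MXD4 and MLXIP were lower in both restricted groups, and MXD1 had 1 TRF library at 27.8 TPM, whose SD bar runs past 0.

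Reads of HMGA1 could in principle fall on its processed copies elsewhere in the genome. Of 8 HMGA1 pseudogenes in the table, 4 were at 0 TPM in all 12 libraries, and the 8 together summed to 0.62 to 3.34 TPM per library. HMGA2, the other AT-hook protein of the family, was under the filter, at 1.18, 1.79 and 1.42 TPM in TRF libraries against 0.31, 0.13 and 0.16 TPM in CON libraries. In TRF_DDP libraries HMGA2 was at 1.04, 1.5 and 0.6 TPM, against 0.14, 0.33 and 0.1 TPM in DDP libraries. All 6 libraries of restricted medium held more HMGA2 than any of normal medium, at levels under 2 TPM. The other high mobility group genes, which bend DNA or bind nucleosomes, had no call in that direction. Of 8 that were tested, 4 were called lower and 0 higher in TRF against CON, and 3 lower and 0 higher in TRF_DDP against DDP, where 17.1% and 21.4% of all genes tested were called lower. HMGN3, a nucleosome-binding protein, had log2 fold changes of -1.36 and -1.35 in these comparisons, HMGB2, a DNA-bending protein of dividing cells, -0.67 and -1.03, and HMGN5 -1.40 and -1.02.

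MYC itself differed little between the media without cisplatin, and was lowest where restricted medium and cisplatin met. The gene lies at chr8:127735434-127741434 on the plus strand. MYC stood at 72.8, 79.0 and 80.8 TPM in TRF libraries, against 73.9, 71.8 and 76.9 TPM in CON libraries. These ranges overlap, and the log2 fold change was 0.06 (SE 0.05), with a 95% interval from -0.05 to 0.18 (adjusted p = 0.338). In TRF_DDP libraries it stood at 49.6, 52.2 and 47.2 TPM, against 64.9, 62.6 and 61.7 TPM in DDP libraries. Every TRF_DDP library was under every other library of the series.

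Set against DDP, MYC in TRF_DDP had a log2 fold change of -0.34 (SE 0.05, adjusted p = 0.000104), which did not reach the fold of 1.5. Set against TRF, it fell by 0.63 on the log2 scale (SE 0.05, adjusted p = 1.36e-06) and was called lower. In normal medium cisplatin left all 3 DDP libraries under all 3 CON libraries, by a smaller log2 fold change of -0.23 (SE 0.05, adjusted p = 0.0147). The interaction for MYC was -0.40 (SE 0.07, adjusted p = 0.00177), so the difference that went with cisplatin was larger in restricted medium. The mean TPM of MYC in TRF was 1.04 times that in CON.

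MAX, the obligate partner, was the member with the least to report. It ranged from 68.4 to 81.8 TPM in TRF_DDP libraries, 63.2 to 82.2 TPM in TRF libraries, 68.0 to 85.6 TPM in DDP libraries and 64.9 to 81.0 TPM in CON libraries. All 4 ranges overlap. The 95% intervals of its 4 group differences lay within -0.27 to 0.34 on the log2 scale, and none passed an adjusted p of 0.05. The MAX gene overlaps FNTB and CHURC1-FNTB on the other strand, at group means of 13.8 to 19.5 TPM, and no source used here says whether strand was used in quantifying.

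Of the 4 MAX-binding repressors among the members, MNT, MXI1 and MXD4 were lower in restricted medium. Over the 8 network genes, 4 were called lower and 0 higher in TRF against CON, namely these 3 and MLXIP, where 17.1% of all 13854 genes were called lower and 8.41% higher. In TRF_DDP against DDP the same 3 repressors were called lower and 0 members higher, where 21.4% of all genes were called lower and 11.8% higher. MXD1 was called higher there, at 1.23, in a limma fit of only the 2 groups compared (adjusted p = 0.00308). The median log2 fold change of the 8 was -0.27 in TRF against CON and -0.43 in TRF_DDP against DDP, beside -0.11 and -0.10 over all genes tested. Quantile normalization, which moves the median of all genes to 0.00 and 0.01, left 3 of the 8 called in TRF against CON and 1 in TRF_DDP against DDP. The members were chosen with earlier results of these data known, so the counts are a description and not independent evidence.

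MNT is the broadly expressed repressor that is found beside MYC in proliferating cells. It stood at 7.49, 7.62 and 7.92 TPM in TRF libraries, against 16.6, 15.3 and 16.0 TPM in CON libraries. In TRF_DDP libraries it stood at 9.15, 8.75 and 8.42 TPM, against 13.1, 15.1 and 14.4 TPM in DDP libraries. The groups did not overlap in either pair, and MNT fell by 0.97 on the log2 scale in TRF (SE 0.07, adjusted p = 1.92e-07) and by 0.63 in TRF_DDP (SE 0.07, adjusted p = 5.29e-06). The interaction of 0.33 (SE 0.10, adjusted p = 0.0237) runs opposite to that of MYC, with cisplatin going with slightly higher MNT in restricted medium and slightly lower MNT in normal medium. Neither of these 2 differences passed an adjusted p of 0.05 by itself. They were 0.17 in TRF_DDP against TRF (limma adjusted p = 0.0612) and -0.16 in DDP against CON (limma adjusted p = 0.155). The call of the interaction was lost when CON replicate 1, DDP replicate 1 or TRF_DDP replicate 1 was left out (adjusted p = 0.0612, 0.0622 and 0.055).

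MXI1 is a MAX partner that antagonises MYC and is known as a target of hypoxia signalling. It stood at 4.35, 6.22 and 6.80 TPM in TRF libraries, against 12.01, 11.75 and 12.66 TPM in CON libraries. In TRF_DDP libraries it stood at 6.21, 5.26 and 4.78 TPM, against 10.3, 8.52 and 9.94 TPM in DDP libraries. All restricted libraries were under all normal libraries, with log2 fold changes of -0.97 (SE 0.13, adjusted p = 5.2e-05) and -0.72 (SE 0.13, adjusted p = 0.000435). Under quantile normalization MNT and MXI1 in TRF_DDP against DDP came to -0.49 and -0.54, short of the fold of 1.5.

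MXD4 is the most abundant of the 4 repressors and is linked to differentiation and exit from the cell cycle. It stood at 40.7, 38.5 and 41.1 TPM in TRF libraries, against 66.2, 62.1 and 69.9 TPM in CON libraries. In TRF_DDP libraries it stood at 41.1, 40.3 and 38.2 TPM, against 65.8, 63.7 and 67.9 TPM in DDP libraries. The fall was of one size in both pairs, 0.71 on the log2 scale with an SE of 0.05, and the interaction lay within -0.17 to 0.16 (95% interval). Within a medium the level of MXD4 was close with and without cisplatin, with a log2 fold change of -0.00 in DDP against CON and -0.01 in TRF_DDP against TRF.

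MXD1, a repressor that rises in differentiating cells of several lineages, was scarce, and 1 library set its mean. It stood at 27.8, 2.14 and 1.99 TPM in TRF libraries, against 3.29, 1.31 and 1.32 TPM in CON libraries. TRF replicate 1 thus stood far above the other TRF libraries, which lay within the range of CON. In TRF_DDP libraries MXD1 stood at 7.17, 7.99 and 7.52 TPM, against 1.86, 4.56 and 2.04 TPM in DDP libraries, and those groups did not overlap. The log2 fold change in TRF_DDP against DDP was 1.23 (SE 0.79, adjusted p = 0.201) in the fit of all groups. Without TRF replicate 1 it was again 1.23, at an adjusted p of 0.00256, and in TRF_DDP against TRF it was then 1.48 at an adjusted p of 0.00335, in place of 0.40 at 0.708.

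The span of MXD1 overlaps SNRNP27, a splicing factor gene on the same strand. SNRNP27 averaged 80.6 TPM in TRF_DDP and 49.7 TPM in DDP, and 43.5 TPM in TRF and 36.8 TPM in CON. The SNRNP27 values of the 3 TRF libraries were 43.9, 44.5 and 42.1 TPM, so the library with 27.8 TPM of MXD1 did not stand apart for its neighbour. The part of shared reads in the MXD1 values was not tested. In number, 19 genes of at least 10 TPM stood 5-fold or more above both replicates in TRF replicate 1, where the 12 libraries had 12 to 31.

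**Figure D2:**
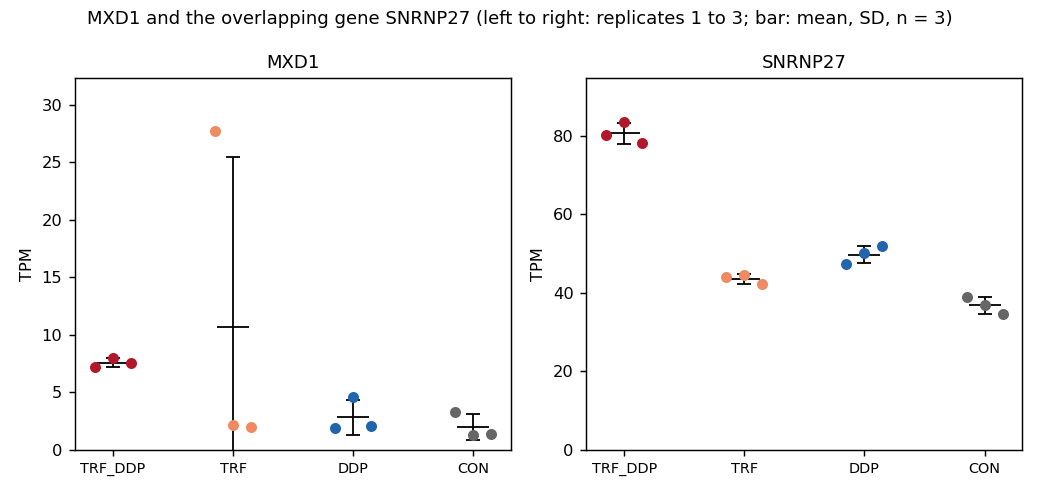
MXD1 and the overlapping gene SNRNP27 in TPM (vertical axes, from 0) in the TRF_DDP, TRF, DDP and CON libraries, with points for replicates 1 to 3 from left to right, the mean and the SD (n = 3; the lower arm for MXD1 in TRF runs past 0). TRF replicate 1 holds 27.8 TPM of MXD1, against 2.14 and 1.99 TPM in the other TRF libraries, while SNRNP27 lies at 42.1 to 44.5 TPM in all 3.

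Summed over MXD1, MXI1, MXD4 and MNT, the repressors came to 80.3, 54.5 and 57.8 TPM in TRF libraries, against 98.1, 90.5 and 99.9 TPM in CON libraries. In TRF_DDP libraries the sum was 63.7, 62.3 and 58.9 TPM, against 91.0, 91.9 and 94.2 TPM in DDP libraries. MYC divided by this sum was 0.907, 1.45 and 1.40 in TRF libraries, against 0.754, 0.793 and 0.77 in CON libraries, the lowest TRF value being the library with high MXD1. The same ratio was 0.778, 0.839 and 0.802 in TRF_DDP libraries, against 0.713, 0.682 and 0.655 in DDP libraries. In both pairs the groups did not overlap, and the TRF_DDP range overlapped that of CON, with MYC and the repressors both at lower TPM. The sum covers only the repressors among the members and leaves out MXD3, another gene of the MXD family. MXD3 averaged 10.5 TPM in TRF_DDP, 21.8 TPM in TRF, 53.7 TPM in DDP and 50.9 TPM in CON. The ratios and the overlap with CON are thus given for this sum only, and a sum with MXD3 was not computed. These are ratios of RNA and were not tested.

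MLX and MLXIP, the glucose-responsive pair, differed in opposite directions. MLX stood at 39.9, 45.6 and 43.8 TPM in TRF libraries, against 36.9, 38.4 and 37.9 TPM in CON libraries. In TRF_DDP libraries it stood at 57.7, 59.4 and 57.1 TPM, against 40.9, 41.0 and 46.6 TPM in DDP libraries. Every TRF_DDP library was above every other library of the series. The log2 fold changes of MLX were 0.19 in TRF against CON (SE 0.06, adjusted p = 0.0198), 0.43 in TRF_DDP against DDP (SE 0.06, adjusted p = 5.05e-05) and 0.42 in TRF_DDP against TRF (SE 0.06, adjusted p = 0.000136). All 3 passed the adjusted p and none the fold. PSMC3IP, which overlaps MLX on the other strand, had group means in the same order, 33.7 TPM in TRF_DDP, 24 TPM in TRF, 20.2 TPM in DDP and 14.6 TPM in CON, and its part in the MLX values was not tested.

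MLXIP, which holds the glucose-sensing region of the dimer, stood at 10.8, 10.4 and 9.48 TPM in TRF libraries, against 16.1, 15.4 and 16.7 TPM in CON libraries. In TRF_DDP libraries it stood at 8.21, 8.91 and 8.11 TPM, against 12.1, 12.4 and 13.0 TPM in DDP libraries. It was lower in every pair, without overlap. The log2 fold change was -0.61 in TRF against CON (SE 0.07, adjusted p = 1.18e-05), which was called, and -0.52 in TRF_DDP against DDP (SE 0.07, adjusted p = 3.28e-05), which did not reach the fold. The TRF call sat at the edge of the fold threshold, with -0.58 without CON replicate 3, -0.56 without TRF replicate 3 and -0.47 under quantile normalization. MLX divided by MLXIP came to 3.70, 4.39 and 4.62 in TRF libraries, against 2.29, 2.50 and 2.26 in CON libraries. It came to 7.03, 6.66 and 7.04 in TRF_DDP libraries, against 3.38, 3.32 and 3.59 in DDP libraries, the highest ratios of the series.

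**Figure D3:**
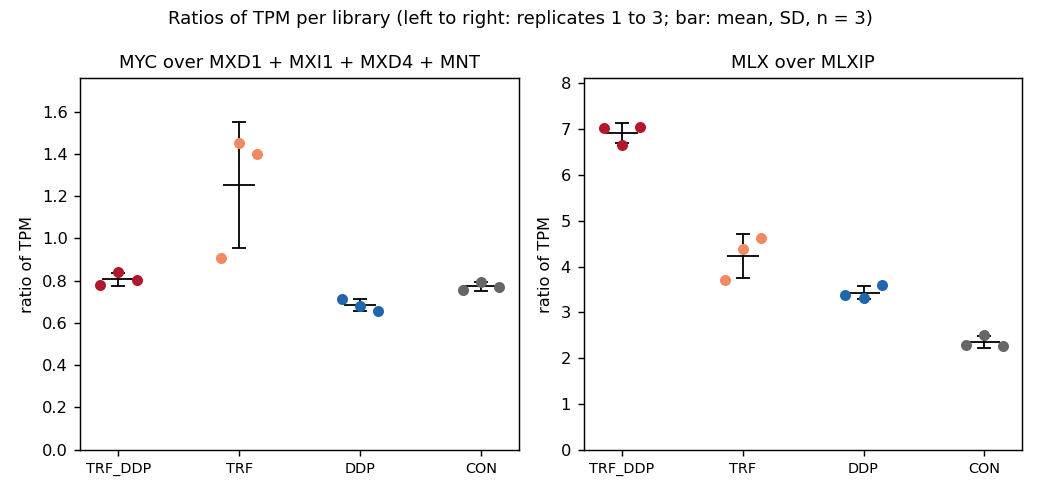
Ratios of TPM per library, MYC over the sum of MXD1, MXI1, MXD4 and MNT on the left and MLX over MLXIP on the right (vertical axes, from 0), in the TRF_DDP, TRF, DDP and CON libraries, with points for replicates 1 to 3 from left to right, the mean and the SD (n = 3). The first ratio is highest in 2 TRF libraries (1.45 and 1.40), and the second runs from 6.66 to 7.04 in TRF_DDP against 3.32 to 3.59 in DDP. The sum in the first ratio leaves out MXD3.

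Targets that MondoA and MLX are best known for were nearly silent here. TXNIP, which restrains glucose uptake, ranged from 0 to 0.17 TPM over the 12 libraries, and ARRDC4, its relative, from 0.14 to 0.62 TPM. The TXNIP window carries the paired E-box-like element through which the dimer is known to act, searched as CACGNG, any 5 bases and CACGNG again, on both strands. It stood in 0.057% of all windows (20 of 35116), and in that of TXNIP it begins 88 bases before the start (chr1:145996639-145996678, minus strand), with the element in capitals. The element is shown because it is the site of MLX dimers in a gene that these cells held at under 1 TPM in both media.
TXNIP: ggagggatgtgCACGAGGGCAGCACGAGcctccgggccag

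Only 2 of 6 genes of the list of MondoA and MLX response passed the filter. KLF10, a repressor of transcription, averaged 34 ± 1.26 TPM in TRF_DDP and 59.2 ± 0.693 TPM in DDP, a log2 fold change of -0.78 (adjusted p = 1.69e-08). PFKFB3, a regulator of glycolysis, averaged 59.3 ± 1.38 TPM in TRF_DDP and 89.9 ± 1.74 TPM in DDP (SD, n = 3 each), a log2 fold change of -0.59 (adjusted p = 3.2e-08). Both were called lower there, where 21.4% of all genes were. PFKFB3 sat at the edge of the fold threshold, and under median-ratio scaling only 1 of the 2 genes was called. Neither was called in TRF against CON, where they had log2 fold changes of -0.54 and -0.31 and 17.1% of all genes were called lower.

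**Figure D4:**
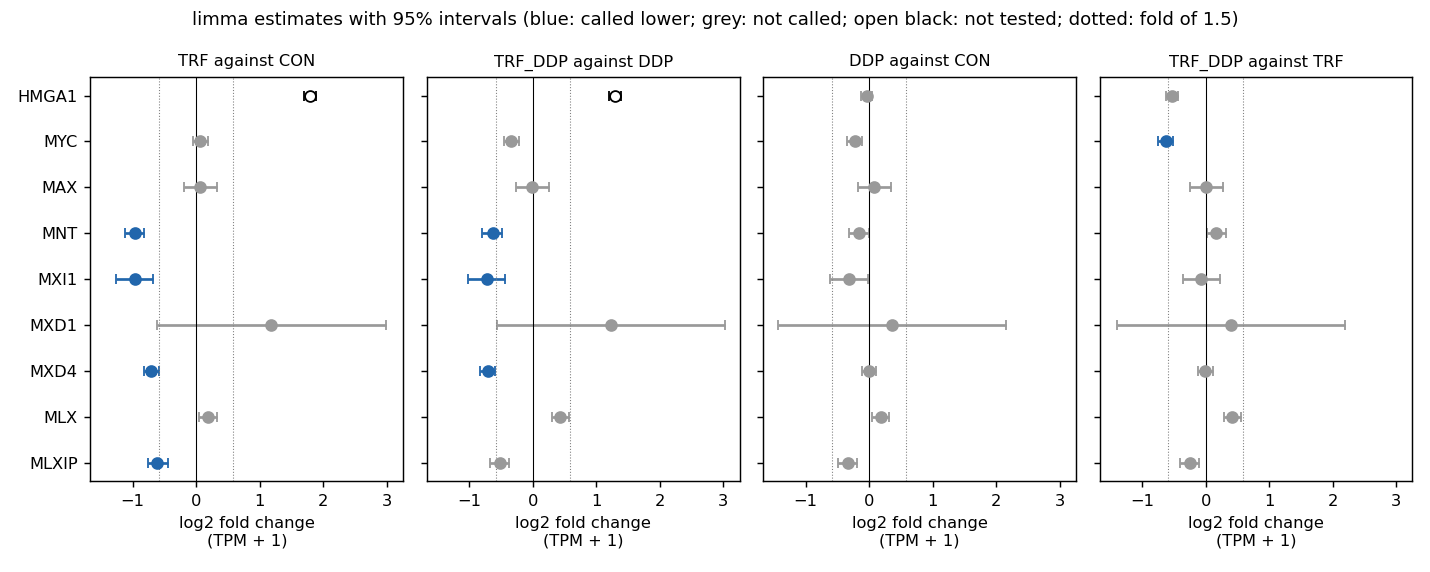
Log2 fold changes of the 9 genes on the log2(TPM + 1) scale (horizontal axes) in TRF against CON, TRF_DDP against DDP, DDP against CON and TRF_DDP against TRF, as limma estimates with 95% intervals. Blue points were called lower, grey points were not called, open points were not tested and dotted lines mark a fold of 1.5. MNT, MXI1, MXD4 and MLXIP are blue in the first panel, MNT, MXI1 and MXD4 in the second and MYC in the fourth.

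In normal medium few genes of the whole series were called with cisplatin. Of the 8 network genes 0 were called in DDP against CON by limma, where 1.86% of all genes were called higher and 0.159% lower. A count of 0 of 8 is near these shares. Before adjustment 5 of them (MYC, MNT, MXI1, MLX and MLXIP) had a p under 0.05, as did 27.1% of all genes. MLXIP had the lowest adjusted p, with a log2 fold change of -0.34 (SE 0.07, adjusted p = 0.00865). In TRF_DDP against TRF only MYC of the 8 was called, where 10.2% of all genes were called higher and 6.10% lower. For the interaction MYC was called lower and MNT higher, where 16.3% of all genes were called lower and 13.5% higher, and MLX missed the threshold at 0.25 (SE 0.09, adjusted p = 0.0508).

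The order of the mean levels changed below HMGA1. In TRF, HMGA1 at 1158 TPM was followed by MYC at 77.5 TPM and MAX at 74.7 TPM, then MLX at 43.1 TPM and MXD4 at 40.1 TPM, and MLXIP, MNT and MXI1 at 10.2, 7.68 and 5.79 TPM, with the place of MXD1 set by 1 library. In CON, HMGA1 at 335 TPM was followed by MYC, MAX and MXD4 at 74.2, 71.4 and 66.1 TPM, then MLX at 37.7 TPM, MLXIP and MNT at 16.1 and 16.0 TPM, MXI1 at 12.1 TPM and MXD1 at 1.97 TPM. The libraries of MYC and MAX overlapped in both groups, as did those of MLX and MXD4 in TRF and, in CON, those of MAX and MXD4 and of MLXIP and MNT. In TRF_DDP, MAX at 74.8 TPM and MLX at 58.0 TPM stood above MYC at 49.7 TPM without overlap, whereas in DDP MAX, MXD4 and MYC led at 75.5, 65.8 and 63.1 TPM and the libraries of MXD4 and MYC overlapped.

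The network genes that were not among the 9 included MXD3, the member of the MXD family that is expressed in S phase. MXD3 averaged 10.5 ± 1.08 TPM in TRF_DDP and 53.7 ± 2.49 TPM in DDP, and 21.8 ± 0.639 TPM in TRF and 50.9 ± 0.864 TPM in CON (SD, n = 3 each). It fell by 2.26 on the log2 scale in TRF_DDP against DDP (adjusted p = 7.69e-11) and by 1.18 in TRF against CON (adjusted p = 2.54e-08). MGA, a very large MAX partner that represses germline genes, fell by 0.59 and 0.64 in these comparisons (adjusted p = 0.000911 and 0.000579). Over all genes 21.4% and 17.1% were called lower there. The fall of 0.59 sat at the edge of the fold threshold. Under quantile normalization only 1 of these 2 genes was called lower in each comparison, and under median-ratio scaling only 1 in TRF_DDP against DDP. MYCN, MYCL and MLXIPL were under the filter.

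Genes that MYC is known to activate were often called higher in restricted medium, where MYC was not. Of 60 such genes 59 were tested, and 27 were called higher and 1 lower in TRF against CON, with a median log2 fold change of 0.58 beside -0.11 over all genes, of which 8.41% were called higher and 17.1% lower. In TRF_DDP against DDP 33 were called higher and 3 lower, with a median of 0.71 beside -0.10, where all genes had 11.8% and 21.4%. The list was chosen with earlier results of these data known, so these shares are a description and not independent evidence. ODC1, the first enzyme of polyamine synthesis, averaged 231 ± 6.42 TPM in TRF_DDP and 34.2 ± 0.902 TPM in DDP, and 174 ± 8.56 TPM in TRF and 31.2 ± 1.76 TPM in CON (SD, n = 3 each). Its log2 fold changes were 2.72 (adjusted p = 3.81e-12) and 2.44 (adjusted p = 8.49e-12). SRM, the next enzyme of that pathway, had 1.46 and 1.60, and RRP12 and NOP16, of ribosome assembly, 1.42 and 1.41 in TRF_DDP against DDP and 1.13 and 1.21 in TRF against CON.

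The 3 lower genes of TRF_DDP against DDP were LDHA, which makes lactate, at -1.04, the replication helicase subunit MCM5 at -0.90, and the nucleoside transporter SLC29A2 at -0.81. LDHA was also the 1 called lower in TRF against CON, at -0.86. In DDP against CON 0 of the 59 were called in either direction, and in TRF_DDP against TRF, where MYC fell, 3 were called higher (MPHOSPH10, NOP2 and WDR43) and 1 lower (SLC29A2). All genes had 10.2% higher and 6.10% lower there. The interaction was called higher for 13 and lower for 7 of the 59, where all genes had 13.5% and 16.3%. Over 19 other settings the higher calls ran from 24 to 31 in TRF against CON and from 32 to 34 in TRF_DDP against DDP.

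Genes that MYC is known to repress went both ways. Of 7, 5 were tested, and 2 were called higher and 2 lower in TRF_DDP against DDP, where all genes had 11.8% and 21.4%. GADD45A and CDKN1A, which also answer to p53, had log2 fold changes of 1.85 (adjusted p = 2.46e-10) and 1.78 (adjusted p = 7.82e-12). CDKN1B, another cyclin-dependent kinase inhibitor, fell by 0.96 (adjusted p = 1.9e-07) and NDRG2 by 1.12 (adjusted p = 0.00332). In TRF against CON, GADD45A was higher at 0.66, CDKN1B and NDRG2 were lower at -0.89 and -1.29, and CDKN1A had 0.09 (adjusted p = 0.0571). All genes had 8.41% called higher and 17.1% called lower there.

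The corepressors through which the MXD proteins act were mostly lower where they were called. Of 16 SIN3 and histone deacetylase genes 8 were called lower and 0 higher in TRF_DDP against DDP, with a median of -0.62 beside -0.10 over all genes, and 4 lower and 1 higher in TRF against CON, with a median of -0.37 beside -0.11. All genes had 21.4% and 17.1% called lower, and the 4 of 16 in TRF against CON are near that share. This list too was chosen with earlier results of these data known, so its counts are a description. RBBP4, a histone-binding subunit, fell by 1.00 in TRF_DDP against DDP (adjusted p = 1.75e-08), the SIN3-associated ARID4A had a log2 fold change of -1.05 (adjusted p = 0.0021), and SIN3A, the scaffold, had -0.84 (adjusted p = 3.17e-06). BRMS1, a SIN3 subunit, was the 1 called higher in TRF against CON, at 0.71.

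Of 24 cofactors and regulators of MYC stability, 7 were called lower and 2 higher in TRF_DDP against DDP, and 5 lower and 0 higher in TRF against CON. Over all genes 21.4% and 17.1% were called lower and 11.8% and 8.41% higher in these comparisons, so the cofactors lay near the background, with medians of -0.28 and -0.03 beside -0.10 and -0.11. AURKA, a mitotic kinase that shields MYC family proteins from degradation, averaged 55.7 ± 3.28 TPM in TRF_DDP and 118 ± 4.37 TPM in DDP, against 128 ± 2.52 TPM in TRF and 106 ± 6.25 TPM in CON (SD, n = 3 each). Its interaction was -1.35 (adjusted p = 6.85e-07). MYCBP2 fell by 1.03, the kinase PIM1 by 1.00 and TRRAP, the scaffold of acetyltransferase complexes that MYC recruits, by 0.95 in TRF_DDP against DDP.

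**Figure D5:**
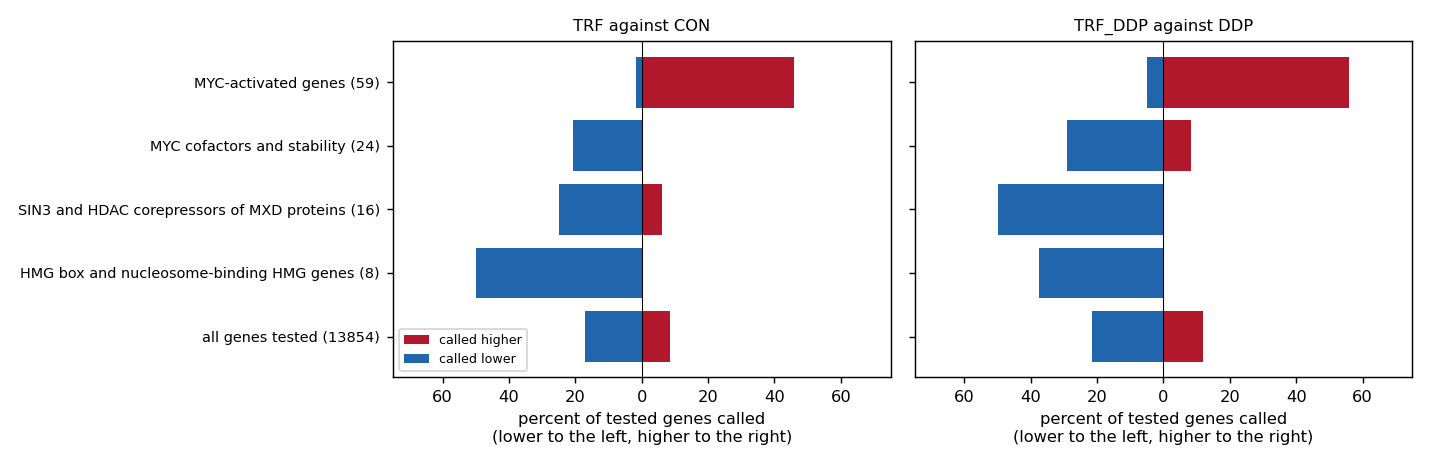
Percent of the tested genes of each list (numbers in brackets) called lower, to the left in blue, and higher, to the right in red, in TRF against CON and TRF_DDP against DDP, with all 13854 genes tested in the last row. Of the MYC-activated genes 27 of 59 and 33 of 59 were called higher, where all genes had 8.41% and 11.8%. The lists were chosen with earlier results of these data known.

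The genes whose levels ran most like those of HMGA1 over the 12 libraries were PDLIM7, HSPA8, IMP4, TUBA1C and EIF4EBP1. The measure was the root mean square difference of centred log2(TPM + 1) profiles over 6921 genes of at least 10 TPM with even replicates, and it ran from 0.08 to 0.20. HSPA8, the constitutive heat shock chaperone, averaged 2480 TPM in TRF_DDP and 1070 TPM in DDP, and 3190 TPM in TRF and 983 TPM in CON. For MYC the nearest were ACTG1, MAZ, NOP14, TEAD2 and TYMP, at 0.06 to 0.08. NOP14, of ribosome assembly, averaged 13.7 TPM in TRF_DDP and 17.9 TPM in DDP, and 21 TPM in TRF and 19.2 TPM in CON. Likeness over 12 libraries of 4 groups is a description of these libraries.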

How the data were processed

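RNA was taken from A549/DDP cells in 4 groups of 3 libraries, grouped by their titles. The authors trimmed reads with SeqPrep and sickle, aligned with HISAT2, assembled with StringTie and deposited TPM per library; edgeR is named in the submitters' notes. No source used here gives the genome build, versions, quantifier or strand use. The file names no unit. Its columns sum to 999999 to 1000000, and the smallest nonzero value falls with gene length, as TPM does. Read counts are not analysed here, so depth is unknown and no counting error is given.

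The 13854 genes that averaged 1 TPM or more were fitted as log2(TPM + 1) with limma 3.58.1 (R 4.3.3; trend, robust) in 1 model of 4 groups, with Benjamini-Hochberg adjustment over all genes; the authors' own test needs counts. Calls required adjusted p < 0.05 together with a fold above 1.5, and the interaction adjusted p < 0.05 alone. A fold on this scale understates low genes. The fit was tested on simulated data. The study calls its replicates biological but does not say whether they came from separate cultures, so p-values measure the spread between these libraries. The members and the lists, 164 genes in 12 lists, were chosen with earlier results of these data known. Besides the 9 members, the text names up to 4 called genes per list by size in TRF_DDP against DDP, of which 1 is not reported here; BRMS1, HMGA2 and genes completing small counts were named after their values were seen. Alternatives were other scalings, pseudocounts, filters, left-out libraries and fits of only the 2 groups compared. Promoter windows are from RefSeq (GRCh38.p14) and gene positions from GENCODE v29.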

Additional observations from a re-analysis of the deposited data

Results flagged for a closer look

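For 2 of the 8 network genes the difference that went with cisplatin was not the same in the 2 media. The test was of the interaction on the log2 scale. Over all genes it called 16.3% lower and 13.5% higher, so 2 of 8 is near that share. MYC had an interaction of -0.40 (limma adjusted p = 0.00177), with the cisplatin libraries lower in both media. MNT had 0.33 (adjusted p = 0.0237), higher in TRF_DDP than in TRF and lower in DDP than in CON, and this was lost without any of 3 single libraries. Mitochondrial transcripts and the number of detected genes also differed between these groups, and their part was not tested.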

How the results depend on the processing

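Each result was computed again under other settings, and 842 of 891 values for the 9 genes stayed the same. For HMGA1 between the media, which had no test, this meant the same direction and a shift under the SD between replicates. For all other values it meant the same direction and the same side of the threshold. Quantile normalization moved the median of all genes from -0.11 to 0.00 in TRF against CON, and the calls there were 1625 higher and 1635 lower in place of 1165 and 2375. In TRF_DDP against DDP they were 2179 and 2273 in place of 1631 and 2968, in DDP against CON 169 and 46 in place of 257 and 22, and in TRF_DDP against TRF 1049 and 1066 in place of 1413 and 845. Of the 8 network genes, 1 in place of 3 was then called in TRF_DDP against DDP, and HMGA1 was at 1.68 and 1.22 in place of 1.79 and 1.29.

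Over these settings only estimates that were not called reversed sign. By scaling, MAX was at 0.00 in TRF_DDP against DDP under median ratios and at -0.06 under quantiles and -0.04 under median ratios in TRF_DDP against TRF, and the MXD4 interaction was at 0.01 under median ratios. With each library left out in turn, MAX ran from -0.01 to 0.18 in TRF against CON, -0.08 to 0.08 in TRF_DDP against DDP, -0.01 to 0.17 in DDP against CON, -0.11 to 0.08 in TRF_DDP against TRF and -0.19 to 0.02 for the interaction. MXD4 ran from -0.05 to 0.04 in DDP against CON, -0.04 to 0.02 in TRF_DDP against TRF and -0.04 to 0.04 for the interaction. MXI1 ran from -0.23 to 0.04 and MXD1 from -0.15 to 1.48 in TRF_DDP against TRF, and the MXD1 interaction from -0.51 to 1.12. Counts of called members ran from 1 to 2 in TRF_DDP against TRF, where MXD1 was called without TRF replicate 1, and from 1 to 3 for the interaction, where MNT was lost or MLX gained. In TRF_DDP against DDP the counts ran from 1 to 4. There MNT and MXI1 were lost under quantile normalization, and MXD1 was gained without TRF replicate 1 or with only the 2 groups compared. The cause of these changes was not tested.

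The replicate numbers did not pair the libraries: same-numbered libraries had correlations of deviations from -0.08 to 0.08 over 18 pairs, and 3 of 12 were closest to their own number. With the replicate number as a block, TRF against CON had 1171 genes called higher and 2373 lower, and of the 9 genes only the call of the MLX interaction changed (0.25, adjusted p = 0.0462 in place of 0.0508). Depth is unknown, so low genes such as MXD1 are limited only by the spread of 3 libraries.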
